A study of Mus musculus with 6 samples.

Results

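Neurons that express *Pmch*, the precursor of melanin-concentrating hormone (MCH), were examined in nuclei of the mouse hypothalamus. A nucleus was counted as a neuron if it held at least 1000 unique molecular identifiers (UMIs) and at least 2 UMIs of *Snap25*, *Syt1* and *Rbfox3* together, and as a *Pmch*-high neuron if it also held at least 5 *Pmch* UMIs that made up at least 15 per 10000 of its UMIs. This rule found 209 of 34707 neurons (0.602%), among 39665 nuclei with at least 1000 UMIs. Since *Pmch* and the 3 neuron genes chose the nuclei, their values are given as a description and were not tested.

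The nuclei came from wild-type male C57Bl/6 mice aged 6 to 8 weeks, of which 12 were fed chow ad libitum and 6 were fasted for 16 h overnight. The unit of replication was a pool of frozen hypothalami from 6 mice, with 2 pools for the fed state, made on different days, and 1 for the fasted state. DRAQ5-stained single nuclei of a pool filled 2 sorting tubes, and every tube was run as its own droplet library (10x 3′ v3). The labels name neither the fed libraries that share a pool nor the day of the fasted pool, so state and preparation day cannot be told apart for the fasted libraries.

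MCH neurons lie mainly in the lateral hypothalamus and zona incerta and send axons widely through the brain. They are known for a part in feeding, energy balance and rapid eye movement sleep, and the peptide is cut from its precursor by prohormone convertases and released to act on the receptor Mchr1. Many of these cells also make the peptide precursor *Cartpt* and the neurokinin 3 receptor *Tacr3*, and the cells that carry both are known to differ in their targets from those that carry neither. The orexin neurons, marked by *Hcrt*, are their best-known neighbours.

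*Pmch* (ENSMUSG00000035383) spans positions 88091072 to 88092375 of chromosome 10 (GRCm38, plus strand) and overlaps *Parpbp* on the other strand. *Cartpt* (ENSMUSG00000021647) spans 99898489 to 99901091 of chromosome 13 on the minus strand. The stretches below, from RefSeq promoters on GRCm38.p6, are shown because they hold the letters of well-known promoter motifs ahead of *Pmch*, which the rule used, and *Cartpt*, which it did not: a TATAAA and a TGAGTCA, the form that AP-1 factors bind, ahead of *Pmch*, and a TGACGTCA, the form that CREB factors bind, ahead of *Cartpt*. Capitals mark the motif, and each sequence is written 5′ to 3′ on the strand of its gene. Distances count from the start of the RefSeq transcript, which for *Cartpt* lies inside the span given above, so that its motif lies ahead of that start and within the longer GENCODE gene.
*Pmch*, chr10:88090973-88091002, plus strand, motif 88 to 82 bases before the start: gctctacggggTGAGTCAtttctaaactga
*Pmch*, chr10:88091033-88091062, plus strand, motif 27 to 22 bases before the start: agacagaaagtaTATAAAggtggggatcat
*Cartpt*, chr13:99900777-99900806, minus strand, motif 112 to 105 bases before the start: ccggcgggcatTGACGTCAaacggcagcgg
Searched on both strands over the 250 bases before each start, TATAAA was present in 12.4% of 32851 promoters, TGAGTCA in 4.46% and TGACGTCA in 1.55%. Of the 15 genes named below as highest in *Pmch*-high neurons, 10 had a promoter in the table. TGACGTCA was found ahead of *Cartpt* and *Ell2*, TATAAA ahead of *Tacr3* and *Tstd2*, and TGAGTCA ahead of none of the 10.

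The rule found 22, 30, 71 and 60 nuclei in ad-libitum-fed libraries 1 to 4 and 13 nuclei in each fasted library. Summed over these nuclei, the libraries held 174916, 234651, 788508 and 659025 UMIs in the fed state and 161933 and 173327 in the fasted state. The median *Pmch*-high nucleus had 7913, 7880, 9987 and 10492 UMIs in the fed libraries, and 12009 and 14157 UMIs in the fasted libraries. Other neurons of the same 6 libraries had medians of 4633, 4755, 8787, 8886, 6798 and 6794 UMIs. The ribosomal protein share of UMIs in *Pmch*-high neurons was 1.88% and 1.97% in fed libraries 3 and 4, but lay between 0.281% and 0.398% in the other 4 libraries. Other neurons showed the same step, with 1.93% and 1.96% against 0.298% to 0.449%, so fed libraries 3 and 4 stood apart from the rest in all neurons. No barcode was held by *Pmch*-high neurons of 2 libraries, while 5 to 17 barcodes of all nuclei were shared by each pair of libraries.

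The label of the cells was checked on genes that the rule did not use, and it held in 4 of the 6 libraries. In fed libraries 1 and 2 and both fasted libraries, 41 of 78 *Pmch*-high nuclei held a UMI of the homeobox gene *Otx1* and 46 of 78 a UMI of *Tacr3*. Among other neurons of the same libraries, *Otx1* was found in 0.121% to 0.434% and *Tacr3* in 1.68% to 2.37% of nuclei. In fed libraries 3 and 4 the picture split at about 150 *Pmch* UMIs per 10000. Of 47 nuclei at or above that level 28 held *Otx1* and 21 held *Tacr3*, but of 84 nuclei below it only 2 held *Otx1* and 6 held *Tacr3*. These 84 nuclei therefore met the rule for *Pmch* with far less of the other genes of MCH neurons. In them 11 and 12 of the 15 genes named below stood above other neurons in the 2 libraries, and 2 genes were at 0 in each. Those genes were chosen from sums that include these nuclei, so these counts do not check the label. The other 125 held the markers at the shares given above. All 209 nuclei are called *Pmch*-high neurons here for that reason. The line at 150 was drawn after these values were seen, so values on its 2 sides carry no test.

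A published list of 10 genes for MCH cells, given in the study's supplement, showed the same split. Summed over the list, neurons with under 5 *Pmch* UMIs per 10000 held 1.00 to 1.72 UMIs of these genes per 10000 in the 6 libraries. Between 15 and 50 *Pmch* UMIs per 10000, the sum was 5.96 and 6.98 in fed libraries 1 and 2 and 6.05 and 9.0003 in the fasted libraries, but 1.84 and 2.28 in fed libraries 3 and 4. At 150 and above it reached 5.99 and 8.34 there. The order of the libraries thus depended on the *Pmch* range, and libraries 3 and 4 needed far more *Pmch* per nucleus to show the same markers.

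**Figure D1:**
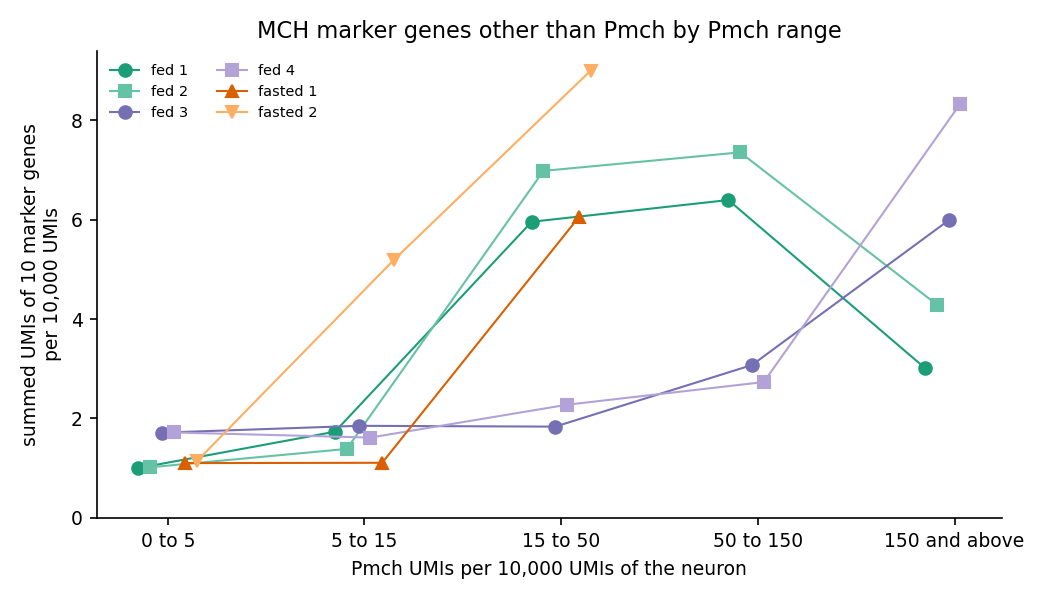
Summed UMIs of the 10 listed MCH genes per 10000 UMIs (y axis) in neurons grouped by their Pmch UMIs per 10000 (x axis), with 1 line per library. Fed libraries 1 and 2 and both fasted libraries rise at 15 to 50, while fed libraries 3 and 4 stay at 1.84 and 2.28 there and reach 5.99 and 8.34 at 150 and above. The points of fed libraries 1 and 2 at 150 and above rest on 1 and 2 nuclei.

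*Pmch* itself differed widely between the libraries. The median *Pmch*-high nucleus held 44.3, 53.5, 52.0 and 46.6 *Pmch* UMIs per 10000 in fed libraries 1 to 4 and 26.2 and 28.6 in fasted libraries 1 and 2. The highest nucleus reached 215, 246, 1397 and 1261 per 10000 in the fed libraries, while fasted libraries 1 and 2 reached 46.6 and 37.1. Nuclei above 150 per 10000 had a median of 693 in fed library 3 and 456 in fed library 4. The most *Pmch*-rich nuclei were thus all in libraries 3 and 4, and no fasted nucleus reached 50 per 10000.

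Free *Pmch* RNA was measured in oligodendrocytes, which do not make the peptide. Ad-libitum-fed libraries 1 to 4 gave 0.605, 1.04, 0.935 and 0.815 UMIs per 10000 there, and fasted libraries 1 and 2 gave 0.190 and 0.180. Other neurons held 0.389, 0.522, 0.845 and 0.727 per 10000 in the fed and 0.103 and 0.109 in the fasted libraries. Both stood well under the threshold of 15, and both were lower in the fasted libraries, in the same direction as the *Pmch*-high nuclei. A *Pmch* UMI was found in 42.1% and 48.2% of other neurons of fed libraries 4 and 3 and in 16.4% and 22.4% of those of libraries 1 and 2, against 6.00% and 6.72% in the fasted libraries. After thinning to 2000 UMIs the shares in libraries 1 to 4 were 7.41%, 10.4%, 15.6% and 13.0%, and 1.93% and 1.96% in the fasted ones.

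The nuclei on either side of the threshold were counted as well. The lowest *Pmch*-high nucleus held 20.5, 20.01, 15.02 and 15.2 *Pmch* UMIs per 10000 in fed libraries 1 to 4 and 16.5 and 15.7 in the fasted libraries. With no minimum of *Pmch* UMIs, the highest neuron under 15 per 10000 held 14.7, 11.96, 14.96, 14.1, 9.99 and 14.2. Neurons with at least 5 *Pmch* UMIs that fell short of 15 per 10000 numbered 5 and 7 in fed libraries 1 and 2 and 1 and 4 in the fasted libraries, but 100 and 89 in fed libraries 3 and 4. That minimum of UMIs is reached less often in shallow nuclei, and with no minimum 56, 66, 118 and 110 neurons of fed libraries 1 to 4 and 4 and 9 of the fasted libraries held 5 to 15 per 10000. In fasted library 2, 9 neurons with 5 to 15 per 10000 held 5.19 UMIs of the listed MCH genes per 10000, and 33.3% of them held *Otx1*.

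**Figure D2:**
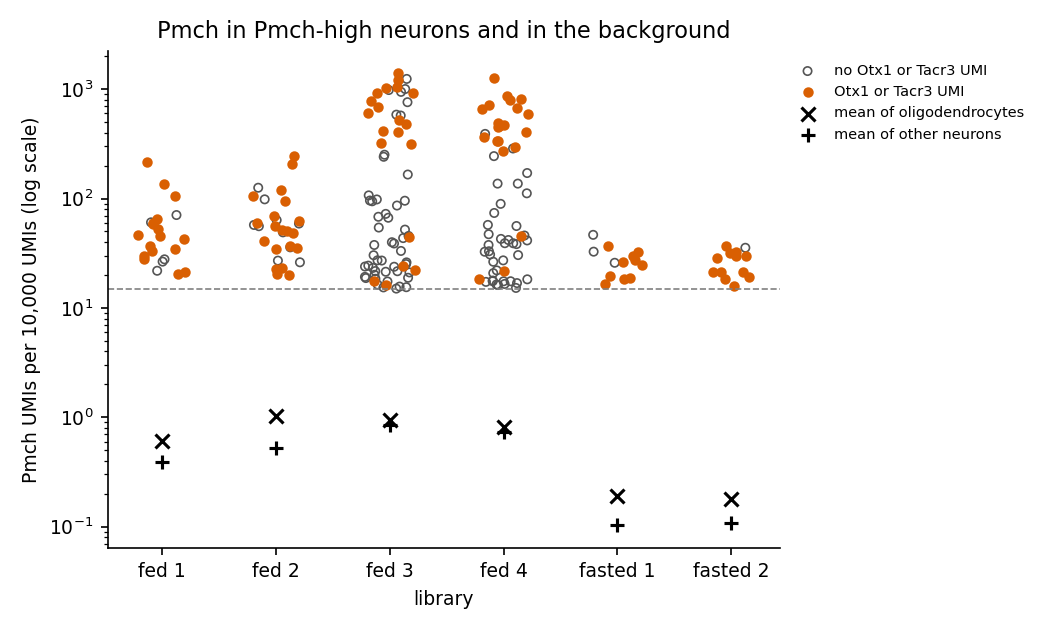
Pmch UMIs per 10000 UMIs (log axis) of each Pmch-high nucleus by library, filled where the nucleus held an Otx1 or Tacr3 UMI and open where it held neither, with the threshold of 15 as a dashed line. Crosses and plus signs give the mean of oligodendrocytes and of other neurons. Fed libraries 3 and 4 hold mostly open nuclei under 150 and filled nuclei up to 1397, and the fasted nuclei end at 46.6.

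Compared with other neurons, *Pmch*-high neurons were set apart by single genes, among them the homeobox gene *Otx1*, the growth factor *Igf1* and the neurokinin receptor *Tacr3*. Counts were summed per library and class, given as CPM (counts per 1000000 UMIs of that sum), and tested by edgeR's quasi-likelihood test with the pool of mice as replicate and as block. Of 22543 genes tested, 519 were higher (2.3%) and 659 lower (2.92%) in *Pmch*-high neurons at an adjusted p under 0.05. A gene could pass the filter on low counts through other neurons alone, and 8783 genes passed it within *Pmch*-high neurons. Lower calls can thus rest on few counts in *Pmch*-high neurons. The largest rise was that of *Otx1*, with 62.9, 98.0, 30.4 and 27.3 CPM in fed libraries 1 to 4 and 67.9 and 121 in the fasted libraries. Other neurons had 0.119 to 0.797 CPM. Its log2 fold change (log2FC) was 7.51 (standard error 0.41, adjusted p = 5.33e-61), higher in 6 of 6 libraries.

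*Tacr3*, which binds neurokinin B, followed the same pattern. It reached 212, 196, 27.9 and 60.7 CPM in fed libraries 1 to 4 and 179 and 208 in the fasted libraries, where other neurons had 3.57 to 4.96. The log2FC was 4.88 (standard error 0.21, adjusted p = 1.73e-92). *Igf1*, a growth factor, had 314, 337, 78.6 and 95.6 CPM in the fed and 228 and 288 CPM in the fasted libraries, against 3.44 to 5.42 in other neurons. Its log2FC was 5.46 (standard error 0.18, adjusted p = 4.75e-207). For all 3 genes fed libraries 3 and 4 were the lowest, and the summed level of *Pmch*-high nuclei lay above that of other neurons in each library. Single nuclei do overlap, since only 71 of the 209 held an *Otx1* UMI.

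*Cartpt*, the precursor of the satiety-associated peptide CART, had a different order of libraries. Its levels were 1132, 1483, 2004 and 2548 CPM in fed libraries 1 to 4 and 309 and 837 in the fasted libraries. Other neurons had 69.4, 73.3, 333 and 315 CPM in the fed and 24.3 and 29.5 CPM in the fasted libraries, so the gene was highest in libraries 3 and 4 in both classes. The log2FC was 3.83 (standard error 0.15, adjusted p = 1.28e-131). A *Cartpt* UMI was found in 86.4%, 83.3%, 78.9% and 83.3% of *Pmch*-high nuclei of the fed libraries and in 69.2% and 100% of those of the fasted ones. Oligodendrocytes gave 5.96%, 8.66%, 31.8% and 36.0% in the fed and 1.52% and 2.79% in the fasted libraries at median depths of 1729 to 5374 UMIs.

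The other genes named as highest were of several kinds. Among secreted factors *Rspo3*, which enhances Wnt signalling, had a log2FC of 3.81 and *Ccbe1*, which takes part in the maturation of VEGF-C, 4.32. Among channels the silent potassium channel subunit *Kcng3* had a log2FC of 4.33 and the chloride channel *Cftr* 3.39. The zinc finger factor *Zic1* had 3.60, the elongation factor *Ell2* 3.31, the endocytic adaptor *Dab2* 4.55, the lipid-binding *Osbpl3* 3.40, *Tnfaip8* 5.18, *Tstd2* 3.60 and *Has2os*, which is antisense to the hyaluronan synthase gene *Has2*, 3.54. *Zic1* overlaps *Zic4*, and *Tstd2* overlaps *Tmod1* and *Ncbp1*, each on the other strand. The rule for naming required the same direction in each library, and the largest adjusted p among the 15 genes was 6.04e-23, that of *Has2os*.

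Within fed libraries 3 and 4 these genes followed the *Pmch* range. The 15 genes stood at a median of 13.1 and 15.1 times the level of other neurons in nuclei at 150 *Pmch* UMIs per 10000 or more, and at 1.59 and 1.62 times in nuclei below. In fed libraries 1 and 2 and the fasted libraries the median was 24.8, 20.2, 17.95 and 26.4 times. Without libraries 3 and 4, the log2FC of each of the 15 genes was larger, for example 5.89 for *Igf1* and 5.52 for *Tacr3*, and 600 genes were higher and 1017 lower.

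**Figure D3:**
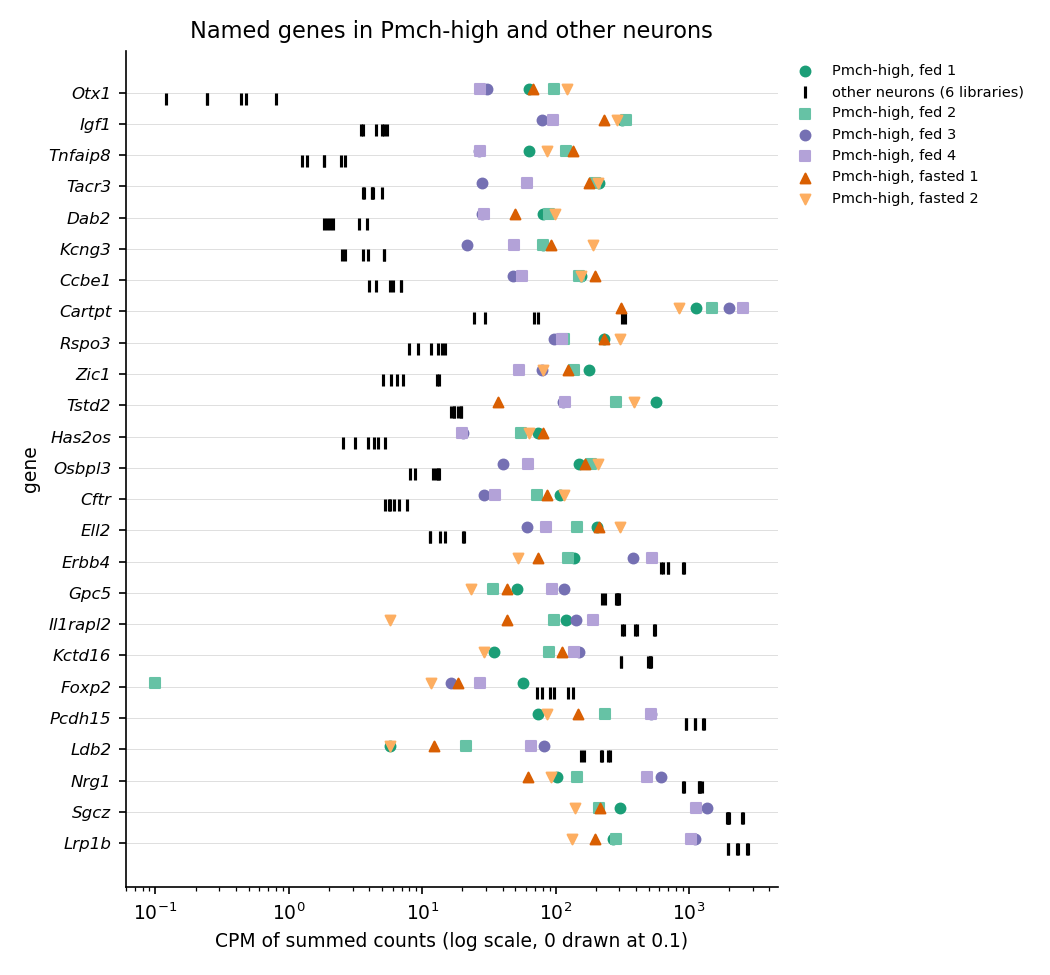
CPM (log axis) of the 15 genes named as highest and the 10 named as lowest in Pmch-high neurons, with 1 coloured point per library for Pmch-high neurons and black ticks for other neurons of the 6 libraries. Points of the upper 15 genes lie right of the ticks in every library, except that Cartpt in fasted library 1 (309 CPM) lies at the level of other neurons in fed libraries 3 and 4 (333 and 315), and points of fed libraries 3 and 4 lie closest to the ticks in the lower 10 except for Foxp2. A level of 0 is drawn at 0.1.

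The list of 10 published MCH genes was tested in full in the same fit. Of its members 9 were higher, 0 were lower and *Cpxm2* did not pass, and the median log2FC was 2.17 against -0.12 over all genes tested. Members that rose included *Nucb2*, a calcium-binding precursor of nesfatin, with 1.56, *Enpp2*, which makes lysophosphatidic acid, with 1.84, and the reticulum proteins *Rcn1* with 1.75 and *Fkbp11* with 2.13. *Parpbp*, which overlaps *Pmch* on the other strand, had a log2FC of 3.60, and *Mup6*, a member of a family of near-identical genes, 6.17, so both values are uncertain.

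Genes of fast transmitters set *Pmch*-high neurons apart from most hypothalamic neurons in a mixed way. *Gad1*, which makes GABA, was higher, with 120, 132, 118 and 75.9 CPM in fed libraries 1 to 4 and 117 and 173 in the fasted libraries against 39.8 to 76.8 in other neurons (log2FC 1.09, standard error 0.16, adjusted p = 1.79e-09). *Gad2*, the other GABA-making enzyme, was lower, with 17.2, 12.8, 109 and 100 CPM in the fed and 18.5 and 5.77 CPM in the fasted libraries against 68.1 to 142 in other neurons (log2FC -0.99, standard error 0.19, adjusted p = 0.00276). Nuclei under 150 *Pmch* UMIs per 10000 in fed libraries 3 and 4 held 176 and 157 CPM of *Gad2*, and those above held 32.7 and 38.2. Against glutamatergic neurons alone, the log2FC of *Gad2* was 1.02, the opposite sign, which may follow from the choice of that group.

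The vesicular GABA transporter *Slc32a1* had 11.4, 4.26, 74.8 and 69.8 CPM in the fed libraries and 0 in both fasted libraries, where a count of 0 allows up to 18.5 and 17.3 CPM. Other neurons had 20.9 to 94.7 CPM, and the log2FC of -0.70 did not pass the test (adjusted p = 0.481), although without libraries 3 and 4 it was -2.51 (adjusted p = 0.0029). *Slc17a6*, which loads glutamate into vesicles, had 74.3, 72.4, 108 and 88.0 CPM in the fed and 43.2 and 57.7 CPM in the fasted libraries against 59.2 to 147 in other neurons (log2FC -0.39, adjusted p = 0.252). Of 14 genes of fast and monoamine transmission tested, *Gad1* alone was higher and 5 were lower, beside 2.3% and 2.92% of all genes, among them *Gad2*, *Th*, *Slc18a2* and *Hdc*. *Th* kept its call in 6 of 16 alternatives.

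Among genes that cut and pack peptides, 1 enzyme was higher. *Pcsk2*, a prohormone convertase, had 4099, 4543, 1773 and 2247 CPM in fed libraries 1 to 4 and 4298 and 4327 CPM in the fasted libraries, against 652 to 718 in other neurons. The log2FC was 2.32 (standard error 0.14, adjusted p = 6.47e-57), and nuclei under 150 *Pmch* UMIs per 10000 in libraries 3 and 4 held 812 and 821 CPM. Its relative *Pcsk1* had 6.18 to 46.9 CPM and did not pass the test (log2FC -0.38, adjusted p = 0.671). Of 25 genes of this list *Pcsk2* was higher, a share near the 2.3% of all genes, and *Scg2*, a granin, *Cadps2*, *Sv2c* and *Syt7* were lower, beside 2.92% of all genes, with a list median of -0.19. Among 28 genes of the endoplasmic reticulum 4 were higher, *Fkbp11*, *Rcn1*, *Nucb2* and the transcription factor *Creb3l2* (log2FC 1.25), and 0 were lower, beside the same shares. Of these, *Fkbp11*, *Rcn1* and *Nucb2* are also members of the published MCH list given above.

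Peptide precursors were called in both directions, beside 2.3% of all genes higher and 2.92% lower. Of 30 tested, *Cartpt*, *Nucb2*, *Hcrt* and *Npvf* were higher, and *Penk*, *Agrp*, *Npy*, *Tac1*, *Nts*, *Cck*, *Avp*, *Oxt*, *Ghrh* and *Bdnf* were lower. Over 16 alternatives *Agrp* kept its call in 7, *Ghrh* in 6 and *Nts* in 8. The rise of *Hcrt* rested on fed library 3, with 1546 CPM there against 106 in library 4 and 6.18 to 38.4 in the others, and without that library the log2FC turned from 0.90 to -1.26. A single nucleus of library 3, with 29 *Pmch* UMIs, held 1093 of the 1219 *Hcrt* UMIs of that library's *Pmch*-high neurons. *Npvf*, the precursor of RFamide-related peptides, likewise had 101 CPM in fed library 3 and 0 to 6.07 elsewhere, and turned from 1.04 to -2.06 without it. Part of the lower peptides depended on the comparison group, since *Agrp*, *Npy* and *Ghrh* had log2FC of 0.26, 0.17 and 0.54 against glutamatergic neurons.

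Of 43 peptide and hormone receptors tested, *Tacr3* and the IGF-1 receptor *Igf1r* (log2FC 0.75, adjusted p = 0.000106) were higher and 9 were lower, beside 2.3% and 2.92% of all genes, with a median of -0.70. Within *Pmch*-high neurons alone 19 of the 43 passed the filter on low counts, so lower calls can rest on few counts there. The lower receptors included *Hcrtr2*, *Lepr*, *Calcr*, *Oprm1*, *Cnr1*, *Npsr1*, *Esr1* and *Nr3c1*. The orexin receptor *Hcrtr2* was listed at 0 in fed libraries 1 and 2 and both fasted libraries, where 0 counts allow 12.8 to 18.5 CPM, and at 21.6 and 19.7 CPM in fed libraries 3 and 4. Other neurons had 43.1 to 56.9 CPM (log2FC -1.93, standard error 0.27, adjusted p = 7.24e-11). The leptin receptor *Lepr* had 0, 4.26, 11.4 and 27.3 CPM in the fed and 0 and 5.77 CPM in the fasted libraries against 21.6 to 44.2 in other neurons (log2FC -1.09, adjusted p = 0.00807), lower in 5 of 6 libraries. *Lepr* kept its call in 10 of 16 alternatives.

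Receptors for serotonin, histamine and glutamate moved both ways. *Htr2c* had 772, 980, 429 and 354 CPM in the fed libraries and 1068 and 963 in the fasted libraries, against 230 to 282 in other neurons (log2FC 1.49, standard error 0.14, adjusted p = 2.35e-23). *Htr1d* (3.04), *Htr1f* (0.94), the histamine receptor *Hrh3* (1.10) and the glutamate receptor *Grm8* (0.51) were also higher by log2FC, though *Grm8* kept its call in 7 of 16 alternatives. *Htr4*, *Adra1a*, *Chrm3*, *Grm7* and *Gabbr2* were lower, out of 29 tested, beside 2.3% of all genes higher and 2.92% lower. *Htr1d* and *Htr1f* couple to inhibitory G proteins and *Htr2c* to an excitatory one, so serotonin receptors of both kinds were among the risers. *Htr1d* was listed at 0 in fed library 1 and was higher in the other 5 libraries.

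Of 62 transcription factors of hypothalamic identity tested, *Otx1*, *Zic1*, *Lef1* (log2FC 2.36) and *Nkx2-1* (1.84, adjusted p = 1.47e-16) were higher, and 15 were lower, among them *Tcf7l2* (-2.44), *Bcl11b* (-2.25) and *Foxp2* (-2.10). Within *Pmch*-high neurons alone 12 of the list's 65 members passed the filter on low counts, so lower calls here can rest on few counts. Among potassium channels *Kcnc2* (1.28) and *Kcna4* (0.91) were higher and 15 of 33 were lower. Calcium channels had 0 higher and 5 lower of 21. Axon guidance and adhesion genes had 11 higher and 11 lower of 35. These counts stand beside 2.3% of all genes higher and 2.92% lower. Of 22 genes of nutrient sensing, glucose uptake and the ATP-sensitive potassium channel, and of 16 of the insulin and FoxO axis, none passed the test in either direction.

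The 10 genes named as lowest were led by a large surface receptor. *Lrp1b*, of the LDL receptor family, had 269, 281, 1115 and 1026 CPM in fed libraries 1 to 4 and 198 and 133 in the fasted libraries, against 1944 to 2774 in other neurons (log2FC -2.53, standard error 0.16, adjusted p = 5.72e-45). *Nrg1*, a neuregulin ligand, and *Erbb4*, its receptor, were both lower, with log2FC of -2.34 and -1.95. The others were *Sgcz* (-2.36), *Ldb2* (-2.23), *Pcdh15* (-2.18), *Foxp2*, *Kctd16* (-2.06), which is an auxiliary subunit of GABA-B receptors, *Il1rapl2* (-1.97) and *Gpc5* (-1.95). Under DESeq2 *Nrg1* and *Il1rapl2* no longer passed the test. In fed libraries 3 and 4 the level of these genes relative to other neurons was a median of 0.230 and 0.216 at 150 *Pmch* UMIs per 10000 and above, and 0.832 and 0.788 below.

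None of the markers of other cell types was higher in *Pmch*-high neurons by the test, although summed microglial and precursor genes exceeded those of other neurons in some libraries. Oligodendrocyte genes summed to 0.865 to 1.61 UMIs per 10000 in *Pmch*-high neurons, against 1.46 to 3.25 in other neurons, and *Mbp* and *St18* were lower. The defining gene *Mog* was at 0 in fed library 2 and both fasted libraries. Microglial genes summed to 0.432 to 0.767, against 0.463 to 0.671. Astrocyte genes, led by *Slc1a2*, summed to 0.319 to 0.682 against 0.479 to 1.11, and precursor genes to 0.241 to 0.516 against 0.233 to 0.796. *Aqp4* and *Gja1* were at 0 in at least 3 libraries each. Vascular genes came to at most 0.124, with *Flt1* and *Cldn5* at 0 in each library, and tanycyte genes to at most 0.288. Of the 42 genes of these 6 lists 39 were tested and none was higher, while *Mbp*, *St18*, *Col23a1* and *Pdgfrb* were lower.

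Orexin nuclei, taken by the same rule with *Hcrt* in place of *Pmch*, numbered 7, 5, 32 and 41 in fed libraries 1 to 4, 5 in fasted library 1 and 0 in fasted library 2, and 2 further nuclei of fed library 3 met both rules. With no such nuclei in fasted library 2 the classes were set side by side without a test. In the 5 libraries with orexin nuclei, *Otx1*, *Igf1*, *Dab2* and *Has2os* were listed at 0 in the orexin nuclei of each. *Rfx4*, a transcription factor, had 268 to 953 CPM over the 5 libraries in orexin nuclei and 0 to 18.5 over the 6 libraries in *Pmch*-high neurons, and *Lhx9*, another one, had 90.01 to 215 and 0 to 7.61 CPM. *Pmch* came to 16.1 to 146 CPM in orexin nuclei. Not all genes named as lowest were lower than in orexin nuclei. *Il1rapl2* was higher in *Pmch*-high neurons in 5 of the 5 libraries, *Kctd16*, *Gpc5* and *Erbb4* in 4, *Sgcz* in 3 and *Ldb2* in 2. *Lrp1b*, *Nrg1*, *Pcdh15* and *Foxp2* were higher in 0.

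*Pmch*-high neurons were also compared by their *Cartpt* level. *Cartpt*-high nuclei, with at least 3 *Cartpt* UMIs that made up at least 5 per 10000, numbered 101, nuclei with 0 *Cartpt* UMIs numbered 37 and 71 lay between. The classes are ranges of a level and not cell types, and *Cartpt* was not tested. Of the *Cartpt*-high nuclei 25 of 101, and of the *Cartpt*-0 nuclei 16 of 37, were nuclei under 150 *Pmch* UMIs per 10000 in fed libraries 3 and 4, of which 0 of 25 and 1 of 16 held *Otx1*, so the classes mix these nuclei in unequal shares. Fasted library 2 held no *Cartpt*-0 nucleus and the other libraries 3, 5, 15, 10 and 4. *Cartpt*-high nuclei were deeper, with a median of 9736 UMIs against 7951. Their median *Pmch* was 63.5 per 10000 against 38.3 over all libraries, but 37.1 against 34.2 outside fed libraries 3 and 4, and 414 against 919 at 150 or more in those libraries. *Tacr3* was detected in 49 of 101 *Cartpt*-high nuclei (48.5%) and in 5 of 37 *Cartpt*-0 nuclei (13.5%). The class between held it in 19 of 71. Outside fed libraries 3 and 4 the counts were 31 of 47 in *Cartpt*-high, 14 of 19 between and 1 of 12 in *Cartpt*-0 nuclei, and at 150 *Pmch* UMIs per 10000 or more in libraries 3 and 4 they were 17 of 29, 1 of 9 and 3 of 9. *Tacr3* was thus found in a larger share of *Cartpt*-high than of *Cartpt*-0 nuclei in these 2 sets, but the class between did not lie between them. Under 150 *Pmch* UMIs per 10000 in libraries 3 and 4 the counts were 1 of 25, 4 of 43 and 1 of 16, without that order. Outside fed libraries 3 and 4 the median depths were 9163 UMIs in *Cartpt*-high, 11860 between and 6542 in *Cartpt*-0 nuclei.

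Of 4342 genes tested between the classes, 41 were higher in *Cartpt*-high nuclei (0.944%) and 29 were lower (0.668%). The sums per library held 31248 to 339876 UMIs in *Cartpt*-high nuclei and 18727 to 152313 in *Cartpt*-0 nuclei, where present. A gene could thus pass the filter on low counts through the *Cartpt*-high class, and low levels in *Cartpt*-0 nuclei rest on few counts. *Kctd8*, an auxiliary subunit of GABA-B receptors, had 525, 708, 269 and 288 CPM in *Cartpt*-high nuclei of fed libraries 1 to 4 and 512 and 413 in those of the fasted libraries. *Cartpt*-0 nuclei had 0, 43.7, 72.2 and 21.4 CPM in the fed libraries and 0 in fasted library 1, so the classes did not overlap (log2FC 3.14, standard error 0.36, adjusted p = 4.69e-10). *Alk*, a receptor tyrosine kinase, had 1290, 1314, 538, 630, 1376 and 1575 CPM against 481, 87.3, 59.1, 224 and 185 (log2FC 2.496, standard error 0.24, adjusted p = 6.38e-13). Both genes were higher in 5 of the 5 libraries that held both classes, which the rule for naming required.

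The other named genes that rose with *Cartpt* were *Kcng3* (log2FC 3.78), the guidance factor *Ntn1* (3.59), *Enpp2* (3.16), *Rhbdl3* (3.00), the synaptic protein *Nptx1* (2.63), the collagen *Col11a1* (2.62), the guidance factor *Sema5a* (2.42) and the corepressor *Tle2* (2.30). From the lists, *Lef1* (2.59), *Htr1f* (2.24), *Tacr3* (1.68, adjusted p = 0.0311), *Nucb2* (1.13), *Pcsk2* (0.92) and *Kcnq5* (0.88) were higher as well. Over the alternatives run, *Kctd8* passed in 16 of 16, *Alk* in 15 of 16 and *Pcsk2* in 13 of 16, but *Tacr3* in 6 of 14, *Nucb2* in 3 of 15, *Kcnq5* in 9 of 16 and *Tle2* in 3 of 12. *Otx1* (0.55), *Igf1* (0.35), *Slc17a6* (0.00), *Gad1* (-0.23) and *Htr2c* (-0.17) did not pass the test.

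Genes named as higher in *Cartpt*-0 nuclei were the adenylyl cyclase *Adcy2* (-1.93), *Frmd5* (-1.56), *Lcorl* (-1.47), the long noncoding RNA *Rmst* (-1.43), the cadherin *Fat3* (-1.38), the sorting receptor *Sorcs1* (-1.27), *Vat1l* (-1.26), the corepressor *Tle4* (-1.19) and the adhesion molecules *Cntn5* (-1.19) and *Cntn4* (-1.19). *Cntn5* had 1592, 1446, 1185, 1147, 1504 and 1146 CPM in *Cartpt*-high nuclei and 2670, 5981, 2140, 1858 and 3073 CPM in *Cartpt*-0 nuclei, with no overlap. *Vat1l* passed in 5 of 14 alternatives and *Cntn4* in 6 of 16. *Frmd5* had 32.0 to 156 CPM in *Cartpt*-high and 299 to 480 CPM in *Cartpt*-0 nuclei, also with no overlap. Without fed libraries 3 and 4 the counts were 26 higher and 45 lower, and 39 of the 57 genes called before and still tested were called again. After thinning to 2000 UMIs the counts were 3 and 1 of 1061 genes tested, and 4 of the 37 earlier genes still tested were called again. With at least 10 *Pmch* UMIs and 50 per 10000, which no fasted nucleus met, they were 7 and 0 of 2491 genes tested. There 6 of the 57 earlier genes still tested were called again.

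**Figure D4:**
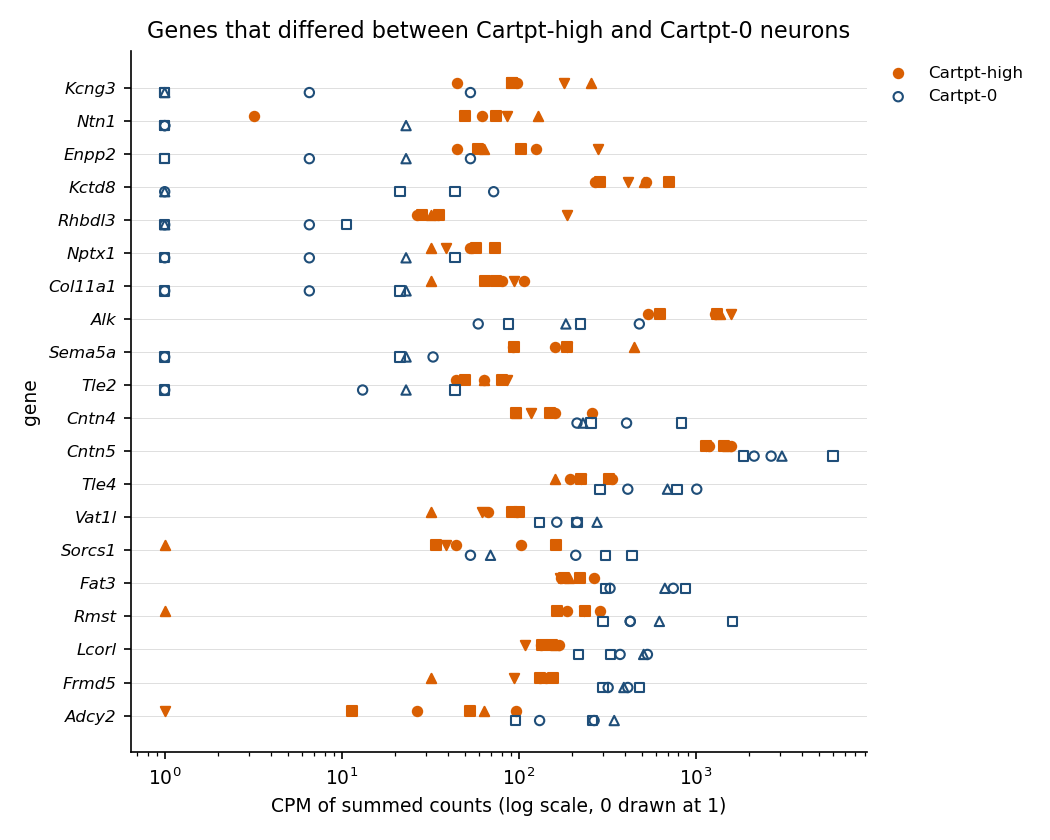
CPM (log axis) in Cartpt-high nuclei (filled, 6 libraries) and Cartpt-0 nuclei (open, 5 libraries) for the 10 genes named as higher and the 10 named as lower, where circles are fed libraries 1 and 3, squares fed libraries 2 and 4 and upward and downward triangles fasted libraries 1 and 2, with 0 drawn at 1. Kctd8 and Alk show no overlap on the upper side, and Cntn5 and Frmd5 none on the lower side.

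The share of *Pmch*-high neurons among neurons was 0.294%, 0.516%, 1.14% and 0.957% in fed libraries 1 to 4 and 0.288% and 0.296% in the fasted libraries. The 95% exact binomial interval was 0.185 to 0.445% in fed library 1, 0.890 to 1.43% in fed library 3 and 0.153 to 0.491% in fasted library 1, and it covers counting error only. The mean of the 4 fed libraries, 0.727%, was 0.435 percentage points above that of the fasted libraries, 0.292%, with p = 0.267 by an exact two-sided permutation test over libraries, whose smallest possible p was 0.133. The 4 fed libraries are tubes of 2 pools and the fasted libraries tubes of 1 pool, and the test takes each tube as an independent sample, so its p-values do not test the states over pools. Fed libraries 3 and 4 lay above the rest, and fed library 1 lay between the 2 fasted libraries. When only nuclei at 150 *Pmch* UMIs per 10000 or more were counted in libraries 3 and 4, their shares were 0.401% and 0.351% and the difference was 0.0989 points. The difference was 0.359 points with at least 10 *Pmch* UMIs and 50 per 10000, 0.438 with at least 5 UMIs of the neuron genes and 0.625 after thinning, and in these 3 settings both fasted libraries lay below all fed ones (exact permutation p = 0.133, the smallest possible). Because the rule rests on *Pmch*, fewer such neurons and less *Pmch* RNA per neuron cannot be told apart.

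**Figure D5:**
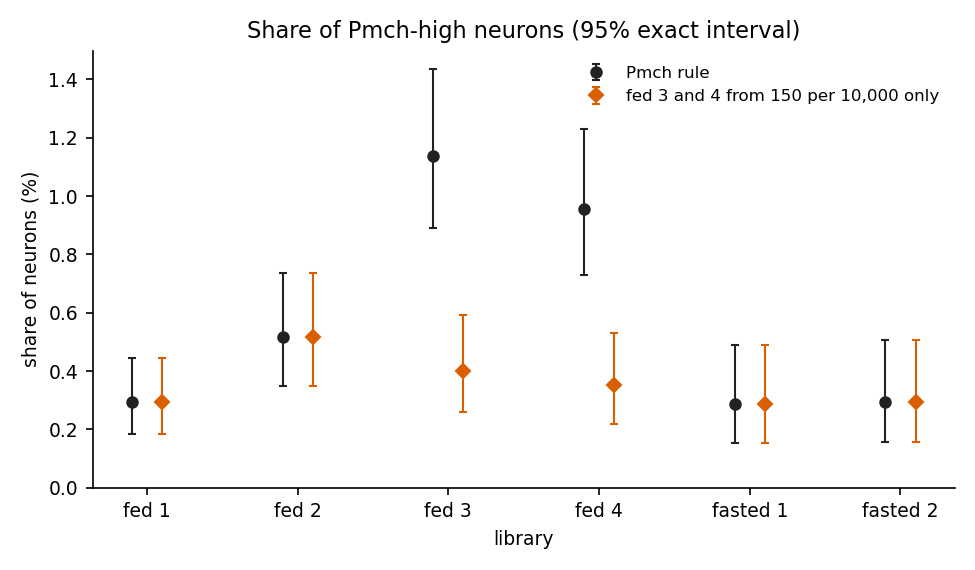
Share of Pmch-high neurons among neurons (%, y axis) by library, with 95% exact binomial intervals. Black points follow the rule of 15 per 10000, and orange diamonds count only nuclei at 150 or more in fed libraries 3 and 4 and repeat the black points elsewhere. In those libraries the shares fall from 1.14% and 0.957% to 0.401% and 0.351%.

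Fasting was compared with ad libitum feeding within the *Pmch*-high neurons, with 2 fed pools against 1 fasted pool that was assumed to vary like the fed ones. Of 8783 genes tested none passed the threshold in either direction (0% higher and 0% lower). An unadjusted p under 0.05 was found for 209 genes, and DESeq2 also called 0 (177 genes at an unadjusted p under 0.05). Both fasted libraries lay above all fed libraries for 1136 genes (12.9%) and below all of them for 1003 (11.4%). The 2 fasted libraries are tubes of 1 pool, so such an order is also one between pools. *Pmch* itself had 5608, 6303, 33686 and 27940 CPM in the fed libraries, and the fasted libraries had 2668 and 2521 CPM, which the rule bounds from below.

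The genes with the smallest p among those that did not overlap are given as values, since none passed (adjusted p = 0.99978 for each). *Ypel2*, a small zinc-binding protein, had 40.0, 38.4, 46.9 and 48.6 CPM in fed libraries 1 to 4 and 148 and 133 in the fasted libraries. The G protein subunit *Gng4* had 22.9, 17.0, 38.0 and 33.4 CPM against 111 and 69.2. *Myh9*, a nonmuscle myosin, had 28.6, 25.6, 10.1 and 22.8 CPM against 67.9 and 75.0. *Trappc6a*, *Foxk1*, *1700030K09Rik*, *Gm49513*, *Smad7*, *P4hb* and *Slc39a13* completed the 10 on the upper side, with log2FC of 1.503 to 1.98 over the 10 genes.

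On the lower side stood genes of respiration and the ribosome. *Higd2a*, an assembly factor of the respiratory chain, had 80.0, 93.8, 65.9 and 74.4 CPM in the fed and 6.18 and 11.5 CPM in the fasted libraries. *mt-Rnr2*, a mitochondrial ribosomal RNA, had 160, 192, 460 and 568 CPM against 18.5 and 28.8, and *Rps15* 74.3, 93.8, 156 and 165 CPM against 12.4 and 11.5. *Ndufb10*, *Rpl26* and *Nme1* were listed at 0 in both fasted libraries, and *Cox17*, *Il1rapl2*, *Psme1* and *mt-Nd1* completed the 10. As classes, 33 of 86 ribosomal protein genes and 8 of 9 mitochondrial genes lay below all fed libraries, beside 11.4% of all genes. Above all fed libraries lay 2 ribosomal and 0 mitochondrial genes, beside 12.9% of all genes. The median log2FC was -2.17 for the ribosomal and -3.85 for the mitochondrial genes, against -0.06 over all genes tested, and without fed libraries 3 and 4 it was -0.32 and -2.69. Other neurons of the fasted libraries were low in these genes too, with *mt-Rnr2* at 42.1 and 42.2 CPM against 211 to 613 in the fed libraries and *Higd2a* at 38.0 and 38.2 against 87.6 to 92.4.

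Without fed libraries 3 and 4, which carry the high ribosomal share, 13 genes were higher and 53 lower in the fasted state at an adjusted p under 0.05, among them *Ypel2* (log2FC 1.77) and *Gng4* (2.10) on the upper side and *Higd2a* (-3.26), *mt-Rnr2* (-2.92), *Rps15* (-2.82), *Il1rapl2* (-2.20) and *mt-Nd1* (-2.69) on the lower. In that fit the 4 libraries were taken as separate samples. The fasted libraries share a pool and fed libraries 1 and 2 may share one, so these calls may compare 1 pool with 1 pool, without replication. With the fed libraries paired as 1 with 3 and 2 with 4, the counts were 517 and 999, and as 1 with 4 and 2 with 3 they were 730 and 1214.

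None of the lists had a member past the threshold in this comparison with all libraries. Without fed libraries 3 and 4, *Cartpt* was lower (log2FC -1.24). In that fit 3 of 18 peptide processing genes were lower, *Scg2* (-2.32), *Ptprn* (-0.86) and *Resp18* (-0.99), beside 53 of all 4047 genes tested. With all libraries, 0 of 19 neuropeptide precursors lay above all fed libraries in both fasted ones and 6 below, beside 12.9% and 11.4% of all genes. The 6 were *Cartpt*, at the levels given above (log2FC -1.63), *Hcrt*, *Pnoc*, *Adcyap1*, *Avp* and *Oxt*. *Hcrt*, *Avp* and *Oxt* are also on the list of genes that define other neurons. In other neurons too, *Cartpt* was lower in both fasted libraries than in each fed one. *Hcrt* was found in 10.8%, 12.0%, 51.3% and 55.8% of neurons in the lowest *Pmch* range of fed libraries 1 to 4. In the fasted libraries that share was 5.33% and 4.80%. In the fit against other neurons given below, 0 of 30 precursors passed. Of 26 reticulum genes 1, *P4hb*, lay above and 8 below, beside 12.9% and 11.4% of all genes. The 8 included the chaperones *Hspa5* (74.3, 42.6, 308 and 320 CPM against 24.7 and 34.6) and *Calr* (45.7, 21.3, 156 and 141 CPM against 12.4 and 5.77). Without fed libraries 3 and 4 only 2 of the 19 precursors and 13 of the 26 reticulum genes passed the filter on low counts, so these counts were not repeated there. Of 19 calcium channel genes 6 lay above all fed libraries, beside 12.9% of all genes, and none below. Their median log2FC was 0.19, and -0.02 without fed libraries 3 and 4, where 15 were tested. *Pcsk2* and the markers *Otx1*, *Tacr3* and *Igf1* overlapped between the states. The immediate early gene *Fos* had 40.0, 29.8, 10.1 and 7.59 CPM in the fed libraries and 0 in both fasted ones, which together allow up to 8.95 CPM. A single nucleus held 6 of the 7 *Fos* UMIs in fed library 1, and another 6 of the 7 in fed library 2, so these levels rest on 1 nucleus each. *Fos* was too low to be tested within these neurons. Of 11 immediate early genes that were tested, 0 lay above all fed libraries and 3 below, *Junb*, *Noct* and *1700016P03Rik*, beside 12.9% and 11.4% of all genes. Their median log2FC was -1.09, and -0.60 without fed libraries 3 and 4, where 3 were tested.

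A further fit set the fasting change of *Pmch*-high neurons against that of other neurons. Of the genes tested, 8783 passed the filter on low counts within *Pmch*-high neurons. The fit holds 1 fasted pool and takes the spread between pools from the 2 fed ones, so calls of this difference do not test the states over pools. Of 22543 genes 1 was higher (0.00444%) and 10 were lower (0.0444%) in this difference. The 10 were *Adgrl2*, *Il1rapl2*, *Kcnip1*, *Sdk1*, *Nrg1*, *Erbb4*, *Gm32647*, *Auts2*, *Zfhx3* and *Lrp1b*. *Gm32647* and *Zfhx3* lie outside the rule for named genes and are given because their values were among the 10. *Lrp1b* had the levels given above in *Pmch*-high neurons, while other neurons had 1944 to 2774 CPM in the fed and 2323 and 2277 CPM in the fasted libraries (log2FC of the difference -1.84, standard error 0.39, adjusted p = 0.00564). *Auts2*, a nuclear regulator, had 194, 175, 244 and 284 CPM in the fed and 67.9 and 92.3 CPM in the fasted libraries, with 511 to 755 and 804 and 824 CPM in other neurons (-1.92, adjusted p = 0.00564).

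Within fed libraries 3 and 4 these 10 genes were higher in the nuclei under 150 *Pmch* UMIs per 10000 than in those above. For *Nrg1* the nuclei under 150 had 833 and 751 CPM there, and the nuclei above had 378 and 197. Without libraries 3 and 4 none of the 10 passed, with log2FC from -0.56 for *Lrp1b* to -2.05 for *Adgrl2*. The smallest adjusted p there was 0.123, for *Auts2* (-1.37). Without fasted library 2 none of them passed either, and DESeq2 called 0 of them. The gene that was higher, *Olfr1369-ps1*, which RefSeq lists as a pseudogene and GENCODE as protein-coding, had 383 CPM in fasted library 1 and 28.8 in fasted library 2, against 5.07 to 17.0 in the fed libraries (log2FC 4.70, adjusted p = 0.000334), and its reads could belong to a related olfactory receptor gene. It was the only one of the 11 that still passed without libraries 3 and 4 (3.54, adjusted p = 0.0346). *Thsd4* (1.42, adjusted p = 0.0668) and *Frmpd4* (-1.56, adjusted p = 0.0770), for which both fasted libraries lay outside the fed range, came next and did not pass.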

How the data were processed

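The deposited files held raw UMI counts per gene and nucleus, 1 matrix per library. Per the file headers and the study's methods, the authors made these counts with Cell Ranger 5.0.1 on GRCm38 (mm10) and an Ensembl gene model, and whether intronic reads were counted is not given in the sources used here. The 6 libraries held 31757655 to 59940795 UMIs in 39953 barcodes. Nuclei with at least 1000 UMIs were kept. No doublet caller was run, and a repeat left out the deepest 10% of *Pmch*-high nuclei and those with at least 5 glial UMIs. Thinned values use 2000 UMIs per nucleus.

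Counts were summed per library and class, and per pool, and tested with edgeR 4.0.16 (quasi-likelihood, TMM, R 4.3.3) on genes that reached 10 counts in 3 or more sums (2 or more within 1 class). Since the labels do not assign fed libraries to pools, each main edgeR fit was run under all 3 pairings. The log2FC and standard error are those of libraries 1 with 2 and 3 with 4, and the p is the largest of the 3, adjusted by Benjamini-Hochberg over all genes tested, with a threshold of 0.05. P-values rest on the spread between pools, which edgeR shares over genes, and the fasted state has 1 pool. With 3 pools, the size of very small p-values rests largely on that sharing. Over the 16 alternatives, which include edgeR and DESeq2 fits, the adjusted p of *Igf1* between classes ran from 1.09e-241 to 3.53e-10. DESeq2 1.42.0 was an alternative, run only with fed libraries 1 with 2 and 3 with 4 as pools. On simulated data with 200 genes changed 4-fold, 200 were recovered between classes and 197 in the fasting comparison. In the measured fasting comparison *Higd2a* (log2FC -3.12) and *Rps15* (-3.37) did not pass. The recovery on simulated data therefore does not show that changes of this size would be called there.

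Named genes were the 15 highest and 10 lowest by log2FC among those past the threshold, changed alike in each library and at 50 CPM or more in the higher class (10 and 10 between *Cartpt* classes). For fasting they were the 10 each way with both fasted libraries outside the fed range, filled by the smallest p, and in addition members of 25 lists (466 genes). The members and lists were chosen with earlier results of these data known. Intervals and limits from 0 counts (3 counts) cover counting error only. Promoters came from RefSeq. Gene positions came from GENCODE. No file of the authors' own comparisons was used. A few genes of the lists are not reported here by name, though they count in the totals.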

Additional observations from a re-analysis of the deposited data

Results flagged for a closer look

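In 3 groups of 4 fed libraries a single library lay far from the rest, out of 81 groups checked, and chance marks about 1 in 20. *Rspo3* had 229 CPM in *Pmch*-high neurons of fed library 1, against 115, 97.7 and 112 in libraries 2 to 4. *Sertad2* had 111 CPM in fed library 2, against 51.5, 57.1 and 57.7 in the others. *Kcng3* had 44.8 CPM in *Cartpt*-high nuclei of fed library 3, against 97.9, 91.4 and 91.2.

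In edgeR's fit of the fasting change of *Pmch*-high neurons against that of other neurons, the genes below stood out. The fit holds 1 fasted pool, so their differences are given as values and do not test the states over pools. The difference in log2FC was 4.70 for *Olfr1369-ps1*, which rested mainly on fasted library 1. It was -3.59 for *Adgrl2*, -2.55 for *Il1rapl2*, -2.39 for *Kcnip1*, -2.30 for *Sdk1*, -2.23 for *Nrg1*, -2.02 for *Erbb4*, -2.01 for *Gm32647*, -1.92 for *Auts2*, -1.87 for *Zfhx3* and -1.84 for *Lrp1b*. The nuclei with little *Otx1* and *Tacr3* in fed libraries 3 and 4 moved with these genes, and their part in the result was not tested.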

How the results depend on the processing

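For *Pmch*-high against other neurons, the 519 higher genes became 262 under a rule of 50 *Pmch* UMIs per 10000 and 339 without the deepest and glial nuclei. The 659 lower genes became 1108 with libraries 1 and 4 as a pool, 1854 with 6 separate libraries, 197 under DESeq2 and 1017 without fed libraries 3 and 4. Leaving out 1 library gave 343 to 468 higher, lowest without fed library 2, and 461 to 790 lower. The log2FC of *Hcrt* ranged from -1.26 without fed library 3 to 1.27 without fed library 4 and was -1.17 under the stricter rule, and that of *Npvf* ranged from -2.06 to 1.73 for the same libraries, with -3.48 under the stricter rule and -1.07 without libraries 3 and 4. Against glutamatergic neurons *Gad2* was 1.02, *Agrp* 0.26, *Npy* 0.17 and *Ghrh* 0.54. The 15 genes named as higher passed in each of 16 alternatives, as did the 10 named as lower, except *Nrg1* (adjusted p = 0.0599) and *Il1rapl2* (adjusted p = 0.10045) under DESeq2. The cause of the changes was not tested.

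In the fasting comparison the counts of 0 and 0 became 517 and 999 with libraries 1 and 3 as a pool, 730 and 1214 with 1 and 4, 2 and 113 without the filter and 13 and 53 without libraries 3 and 4, and were 0 and 0 when any 1 library was left out. With the replicate block over 6 libraries they were 11 and 41, but the shared replicate numbers 1 and 2 only name the libraries, and there are fewer than 3 pairs. For the difference in fasting change, 1 higher and 10 lower became 3 and 27 with libraries 1 and 2 as a pool, 21 and 51 with 1 and 3, 102 and 120 with 1 and 4, 25 and 63 with 6 separate libraries and 2 and 4 without libraries 3 and 4, where *Tent5a* turned to -0.18. The lower count was 0 under DESeq2 and 3 without the deepest and glial nuclei. Leaving out 1 library gave 1 to 6 higher and 0 to 24 lower, with 0 lower without fasted library 2.

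Between *Cartpt* classes, 41 higher and 29 lower became 70 and 61 with libraries 1 and 3 as a pool, 11 and 15 under DESeq2, 7 and 0 under the stricter rule, 12 and 7 without the deepest and glial nuclei, 3 and 1 after thinning and 26 and 45 without libraries 3 and 4. The lower count was 54 with libraries 1 and 2 as a pool and 16 without the filter. Leaving out 1 library gave 9 to 30 higher, lowest without fed library 4, and 4 to 20 lower, lowest without fasted library 1.

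The fits without libraries 3 and 4 were chosen after seeing the data. The stricter rule could not be run for fasting, since no fasted nucleus met it. With 13 nuclei in each fasted library, a count of 0 there allows up to 18.5 and 17.3 CPM. The fasted state rests on 1 pool of mice.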
